A study of Arabidopsis thaliana with 24 samples.

Results

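The comparison described here is that of local leaves exposed to high light on plants that carried a drop of diphenyleneiodonium (DPI) with the same leaves on plants that carried a drop of water. Its libraries were chosen by the sample labels: 3 of the DPI group and 3 of the water group, 6 of 24 in the series, with all transcripts in them. Both groups were wild-type Arabidopsis thaliana of the Col ecotype, 4 to 5 weeks old, grown at 23°C in short days (8 h light, 16 h dark) of 50 µmol m-2 s-1. In the DPI group a drop of 0.3% agarose with 50 mM DPI stood for 15 min midway between the local and the systemic leaf, and in the water group the drop held water and agarose only. The local leaf of both groups was then lit at 2000 µmol m-2 s-1 for 8 min. The drop was not on the leaf that was sampled, so the values below say nothing of how much DPI reached that leaf. Local leaves of unlit plants under either drop (3 and 3 libraries), and systemic leaves of the lit plants under either drop (3 and 3), are used only for comparison. Each replicate was a pool of leaves from many plants according to the study, and p-values measure the spread between such pools.

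DPI blocks enzymes that pass electrons through a flavin. Among them are the respiratory burst oxidase homologs (RBOHs), NADPH oxidases in the plasma membrane that make superoxide outside the cell. A local stimulus such as strong light starts a wave of reactive oxygen species and calcium that travels from the stressed leaf through the vasculature to distant leaves and depends on RBOHD, and a drop of DPI on the path is used to stop it. DPI also acts on other flavin enzymes, including those of mitochondria and chloroplasts. High light in turn changes the levels of transcripts of chaperones, antioxidant enzymes, pigments and hormones within minutes.

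Sequencing depth was 13492454, 17519028 and 18853604 reads assigned to genes in the DPI libraries and 17296160, 18078387 and 20132071 in the water libraries. Of 32833 genes in the table, 18314 reached a normalized count of 10 in 3 or more libraries and were tested. A normalized count is a gene's number of reads over the library's size factor, and is not scaled to gene length, so levels are compared between libraries and not between genes. All differences below are log2(normalized count + 1), DPI minus water, with their standard error (SE) from limma, which understates changes of weakly expressed genes. Calls use a p-value adjusted by the Benjamini-Hochberg method over all 18314 genes, at a threshold of 0.05. Markers of shoot meristem (STM, WUS, CLV3) and root (RHD6, WOX5, PLT1, IRT1) were at or under 3 reads in all 6 libraries. The remaining markers of those lists were detected, KNOLLE and CYCB1;1 of dividing cells without a called difference, and SCR of the root list lower under DPI (summed root list 502 to 572 in DPI libraries and 651 to 741 in water libraries). The summed level of 5 mesophyll markers was 923179 to 971200 in DPI libraries and 996613 to 1027910 in water libraries, with 1 marker higher and 1 lower. The summed level of 5 epidermis markers was 17233 to 17438 in DPI libraries and 19777 to 20446 in water libraries (2 higher, 2 lower), and that of xylem markers was 925 to 1073 in DPI libraries and 665 to 793 in water libraries (3 of 4 tested higher). The part of these shifts in the results was not tested, and in whole leaves fewer cells of a type and less RNA per cell cannot be told apart.

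In high light, transcripts of 7781 genes (42.5% of those tested) differed between local leaves under DPI and under water, 3935 higher under DPI (21.5%) and 3846 lower (21%). Most differences were small, with a median size of 0.39 on the log2 scale among the called genes. At least 2-fold differences were found for 409 transcripts that were higher (2.23%) and 456 that were lower (2.49%), and at least 4-fold ones for 69 and 59. The groups did not overlap for 8878 genes (48.5%). These shares are the background against which every count of a gene group below should be read. The gene lists were chosen with earlier results of these data known, so such counts are descriptions.

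**Figure D1:**
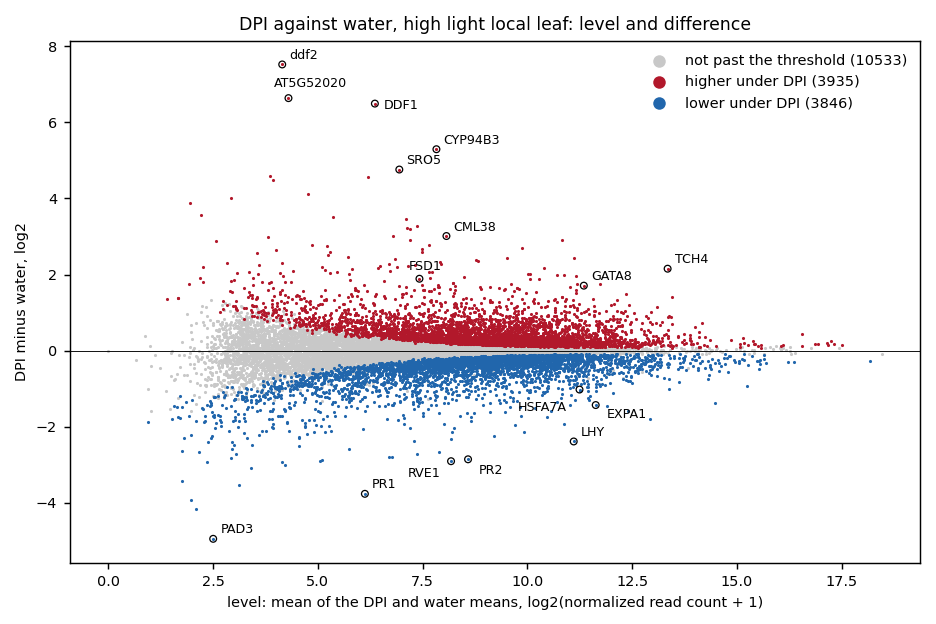
Difference between lit local leaves under DPI and under water (log2, DPI minus water, y axis) against mean level (log2 of the normalized count + 1, x axis) for the 18314 genes tested. Called genes are coloured by direction (3935 higher under DPI, 3846 lower), and labelled transcripts such as DDF1 (6.49) and PR1 (−3.76) lie far from the bulk of called genes, whose median size was 0.39.

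Transcripts of AP2/ERF transcription factors, the closely related pair DDF1 and ddf2 and AT5G52020, had the largest log2 differences. DDF1 and ddf2 are DREB-type members of the AP2/ERF family, related to the CBF factors of the cold response. DDF1 had normalized counts of 656, 796 and 778 in DPI leaves, against 3.28, 11.4 and 9.46 in water leaves. That is a 92.2-fold higher mean and a log2 difference of 6.49 (SE 0.26, limma adjusted p = 1.2e-22). ddf2 had 228, 226 and 243 in DPI leaves, against 0, 1.04 and 0 in water leaves, at most 1 read per library. Its level was at least 75.5-fold higher under DPI when the water group is set to its floor of 3 reads per library. No library of one group came near a library of the other for either gene. A further AP2/ERF gene, AT5G52020, had 198, 169 and 189 in DPI leaves and 2.19, 1.04 and 0 in water leaves, at least 60.2-fold higher under DPI.

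The 250 bases before the annotated starts of the DDF pair are shown because these related genes were both among the most raised and both windows hold the same palindromic run. They are from RefSeq, build TAIR10.1, minus strand, chr1:23368417-23368666 for ddf2 and chr1:4291018-4291267 for DDF1, read 5′ to 3′. Capitals mark an 8-base run in which the motif CGCGT lies on both strands, overlapping itself.
ddf2 promoter: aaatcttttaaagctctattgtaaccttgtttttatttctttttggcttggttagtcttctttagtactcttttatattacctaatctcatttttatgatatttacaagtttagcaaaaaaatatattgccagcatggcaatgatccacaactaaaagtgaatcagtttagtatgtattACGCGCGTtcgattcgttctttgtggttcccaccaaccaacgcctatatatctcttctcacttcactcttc
DDF1 promoter: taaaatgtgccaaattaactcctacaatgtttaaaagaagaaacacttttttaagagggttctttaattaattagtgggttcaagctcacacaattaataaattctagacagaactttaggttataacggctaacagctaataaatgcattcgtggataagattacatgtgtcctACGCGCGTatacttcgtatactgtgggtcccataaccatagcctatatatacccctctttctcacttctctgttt
The run covers bases 71 to 64 before the start in ddf2 and bases 75 to 68 in DDF1, close to the same place. CGCGT, searched on both strands, was found in 7.62% of 18204 such promoters, in 15.9% of those of the 409 transcripts at least 2-fold higher under DPI and in 6.58% of those of the 456 at least 2-fold lower. This motif was chosen after the promoters had been read. The longer CGCGTT, known as the rapid stress response element, overlaps it and was found in 7.82% of the higher set, 1.54% of the lower set and 2.87% of all promoters. AT5G52020 has neither motif in its window. These matches describe letters and were not tested.

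Most jasmonate genes were higher under DPI. Jasmonates are hormones of wounding and herbivory, made from chloroplast lipids, and the JAZ proteins repress their responses. Of 28 genes of jasmonate synthesis and response, 20 were higher under DPI and 2 lower (median log2 difference 0.38, against −0.01 over all genes tested). CYP94B3, which hydroxylates the active hormone jasmonoyl-isoleucine and so removes it, had 1401, 1447 and 1408 in DPI leaves, against 30.6, 40.6 and 35 in water leaves. The difference was 40.1-fold (log2 5.29, SE 0.29, limma adjusted p = 2.3e-18). JAZ7 had 605, 502 and 561 in DPI leaves and 189, 138 and 157 in water leaves, 3.44-fold higher. OPR3, the reductase that makes the precursor of jasmonic acid in peroxisomes, had 6103, 5748 and 5997 in DPI leaves and 3503, 3110 and 3515 in water leaves, a log2 difference of 0.82. The groups were apart for all of these named genes.

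Calcium sensors and touch genes were more often higher than lower. Of 12 genes of the calmodulin-like and touch-inducible list, 7 were higher under DPI and 2 lower (median 0.76). CML38, a calmodulin-like protein, had 764, 755 and 761 in DPI leaves, against 97.3, 83.3 and 100 in water leaves, 8.12-fold higher (log2 3.01, SE 0.15). TCH4, a xyloglucan-modifying cell wall enzyme named for its response to touch, had 22418, 21576 and 21914 in DPI leaves, against 5124, 4836 and 4854 in water leaves. Its difference of 2.15 (SE 0.04, limma adjusted p = 4.3e-33) was smaller than that of DDF1 and had a smaller SE. Other transcripts among the highest were SRO5, of the RCD-ONE-like family, at 606, 607 and 647 in DPI leaves and 33.9, 13.5 and 22.7 in water leaves, and BPS3 at 353, 328 and 337 in DPI leaves and 17.5, 19.8 and 6.62 in water leaves. AT5G38700 (log2 4.60) and AT2G21510 (4.48) rested on 61.6 to 75.4 counts under DPI and 0.946 to 5.47 under water.

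**Figure D2:**
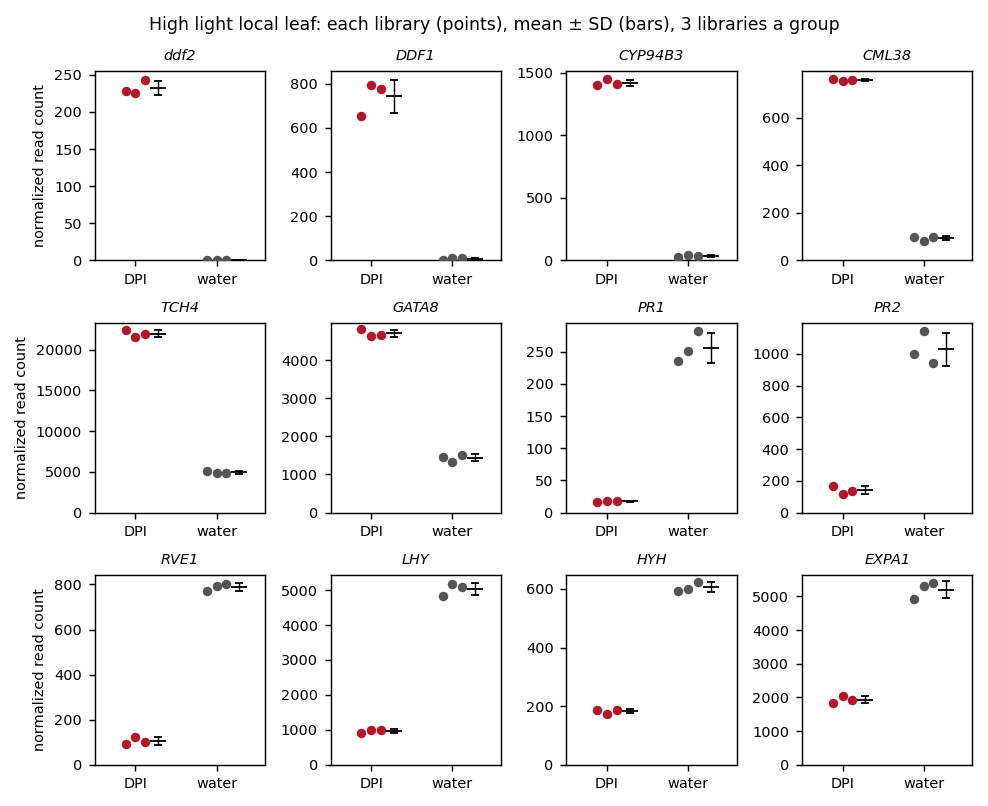
Normalized counts (y axis, linear from 0) of 12 selected transcripts in the 3 DPI and 3 water libraries of lit local leaves, DPI left of water; each point is a library, and bars are the mean ± SD of a group. The groups are apart for DDF1 (656 to 796 under DPI, 3.28 to 11.4 under water) in one direction and for PR1 (17.1 to 18.3 under DPI, 235 to 282 under water) in the other.

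The DREB and ERF list, which does not include DDF1, ddf2 or AT5G52020, was mixed. Of its 26 members 9 were higher and 7 lower (median 0.06), or 4 lower without DPI replicate 2. DREB26 had 988, 979 and 1022 in DPI leaves and 184, 179 and 205 in water leaves, 5.26-fold higher. RRTF1, a redox-responsive factor, had 174, 142 and 153 in DPI leaves and 53.6, 64.5 and 58.6 in water leaves (log2 1.39, limma adjusted p = 0.0026). In contrast ERF5, a factor of defense and growth control, had 216, 186 and 211 in DPI leaves, against 437, 410 and 462 in water leaves (log2 −1.09). C2H2 zinc finger factors of the ZAT and AZF group, early responders to reactive oxygen species, were higher in 1 and lower in 6 of 11 (median −0.26). AT2G28200 of that list had 22.8, 16.1 and 16.2 in DPI leaves and 76.5, 76.0 and 91.7 in water leaves, and ZAT10 had 2309, 2178 and 2423 in DPI leaves and 2746, 2678 and 2818 in water leaves. The exception was AT3G53600, at 25.6, 28 and 22.2 in DPI leaves and 6.56, 1.04 and 4.73 in water leaves. Of 42 WRKY factors, 9 were higher and 10 lower (median −0.05), in all 19 of 42, which is near the 42.5% background. Only 6 WRKY genes were lower without DPI replicate 2, and 6 with a required mean of 50.

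Among hormone pathways other than jasmonate, the abscisic acid and cold list had 9 members higher and 12 lower of 28 (median −0.08). CYP707A1, a hydroxylase that breaks down abscisic acid, had 148, 201 and 198 in DPI leaves and 49.2, 38.5 and 32.2 in water leaves. HAB1, a phosphatase that holds abscisic acid signaling off, had 716, 721 and 723 in DPI leaves and 1573, 1500 and 1514 in water leaves. The dehydrins COR47 and LTI30 were higher under DPI, COR47 at 14232, 14846 and 14825 in DPI leaves and 7731, 7677 and 7779 in water leaves. In the ethylene list 5 of 18 were higher (3 with a required mean of 50) and 8 lower, and the 2 largest differences were those of ACC synthases, which make the ethylene precursor: ACS8 (log2 2.64) and ACS11, with 551, 494 and 533 in DPI leaves and 215, 142 and 176 in water leaves. Auxin and expansin genes were split at 9 higher and 11 lower of 31. IAA6, an auxin response repressor, had 342, 346 and 380 in DPI leaves and 108, 118 and 131 in water leaves, whereas EXPA1, a wall-loosening protein, had 1826, 2046 and 1918 in DPI leaves and 4920, 5305 and 5387 in water leaves.

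Pathogenesis-related transcripts lay among the lowest under DPI. PR1, the standard marker of the salicylic acid response, had 17.1, 18.3 and 18.2 in DPI leaves, against 235, 251 and 282 in water leaves. The water level was 14.3-fold that of DPI leaves (log2 −3.76, SE 0.13, limma adjusted p = 4.7e-25). PR2, a glucanase that cuts fungal walls, had 168, 120 and 138 in DPI leaves, against 997, 1144 and 944 in water leaves (log2 −2.86). AT2G43570, a chitinase-family gene, had 48.4, 29.1 and 38.4 in DPI leaves and 218, 307 and 291 in water leaves. WAK3, a receptor kinase tied to the cell wall, had 11.4, 9.69 and 12.1 in DPI leaves and 97.3, 88.5 and 80.4 in water leaves, and SAG13, a senescence marker, had 14.2, 10.8 and 10.1 in DPI leaves and 79.8, 109 and 87.0 in water leaves. No library of the DPI group reached the lowest water library for any of these.

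PAD3, the cytochrome P450 of the last steps of camalexin synthesis, had no read in any DPI library and 30.6, 41.6 and 20.8 in water leaves, so it was at least 8.84-fold lower under DPI against the floor of 3 reads. FMO1, which makes the mobile signal N-hydroxypipecolic acid, likewise had no read in the DPI libraries and 17.5, 14.6 and 18.9 in water leaves, at least 4.84-fold lower. Among the genes tested, 42 called lower were at the floor in all DPI libraries and 12 called higher were at the floor in all water libraries. Of these, 0 and 2 had a mean of at least 50 in the other group, so most were weakly expressed.

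The salicylic acid list as a whole did not share the size of the PR1 difference. Of its 23 members, 7 were higher and 11 lower (median −0.08), or 7 lower among those with a mean of at least 50. PR5 had 774, 644 and 756 in DPI leaves and 1216, 1249 and 1322 in water leaves, while NPR3, a salicylic acid receptor, was higher under DPI (log2 0.81). The camalexin and glucosinolate list had 7 higher and 3 lower of 16 (none lower among those with a mean of at least 50), with CYP81F2, an indole glucosinolate enzyme, at 167, 135 and 165 in DPI leaves and 89.6, 111 and 113 in water leaves. Detoxification genes were lower in 15 and higher in 7 of 36 (median −0.17). GSTF6, a glutathione transferase, had 312, 243 and 289 in DPI leaves and 649, 708 and 671 in water leaves, and CYP81D1 had 111, 99.1 and 89.9 in DPI leaves and 331, 308 and 355 in water leaves.

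Most clock transcripts were lower under DPI. In the plant clock, the MYB-like factors LHY and CCA1 peak near dawn and repress evening genes such as TOC1, and the REVEILLE (RVE) factors are their relatives. Of 29 clock genes, 19 were lower under DPI and 3 higher (median −0.46). LHY had 902, 993 and 991 in DPI leaves, against 4837, 5176 and 5102 in water leaves, so that the water level was 5.24-fold that of DPI leaves (log2 −2.39, SE 0.04, limma adjusted p = 2.2e-35). CCA1 differed less, at 2810, 2892 and 2924 in DPI leaves and 6253, 6217 and 6316 in water leaves. RVE1, which links the clock to auxin, had 92.5, 124 and 99.0 in DPI leaves, against 770, 795 and 802 in water leaves (log2 −2.91, SE 0.07). RVE8, an activator of evening genes, had 535, 502 and 491 in DPI leaves and 1700, 1670 and 1673 in water leaves, and ASG4, an RVE-type gene outside the list, had 47.0, 79.7 and 63.6 in DPI leaves and 409, 416 and 421 in water leaves.

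The 3 clock genes that went the other way included TOC1, with 279, 263 and 281 in DPI leaves and 206, 182 and 159 in water leaves, and CHE, a repressor of CCA1, with 2901, 2546 and 2805 in DPI leaves and 1365, 1324 and 1362 in water leaves. Libraries of both treatments were from leaves lit for the same 8 min, and per the methods all experiments were run in the same hour of the morning. The times of the DPI and water samples within that hour are not given, and the cause of the clock differences was not tested.

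Promoters of RVE1 and LHY, the members of the clock list with the largest differences, are shown because both hold a G-box (CACGTG, in capitals), a motif read by bZIP and bHLH factors in light signaling. They are again RefSeq sequence of build TAIR10.1, minus strand, chr5:5692993-5693242 for RVE1 and chr1:37872-38121 for LHY.
RVE1 promoter: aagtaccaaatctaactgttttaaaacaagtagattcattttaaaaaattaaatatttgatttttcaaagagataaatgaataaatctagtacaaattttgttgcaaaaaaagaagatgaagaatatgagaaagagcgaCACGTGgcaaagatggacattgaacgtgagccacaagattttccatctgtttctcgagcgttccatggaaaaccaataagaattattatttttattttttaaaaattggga
LHY promoter: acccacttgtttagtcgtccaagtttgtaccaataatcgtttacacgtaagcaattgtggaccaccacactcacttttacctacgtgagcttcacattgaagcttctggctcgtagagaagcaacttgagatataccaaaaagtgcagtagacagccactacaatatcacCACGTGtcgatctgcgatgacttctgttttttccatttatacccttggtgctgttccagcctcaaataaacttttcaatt
The G-box starts 111 bases before the start of RVE1 and 80 bases before that of LHY. It was found in 9 of 29 clock promoters and in 7.45% of all 18204, in 10.3% of the at least 2-fold higher set and 8.11% of the lower set. The evening element core AATATCT was in 13 of 29 clock promoters and in 10.1% of all, 13.9% of the higher and 10.3% of the lower set. The W-box (TTGACC or TTGACT), the site of WRKY factors, was in 34.2% of the higher set, 33.6% of the lower set and 27.8% of all promoters, and CCGAC, the core of the dehydration-responsive element, was in 16.1%, 9.21% and 13.1% of the same sets in that order.

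Light signaling and pigment genes were more often lower than higher. HY5 and HYH are bZIP factors that promote the response to light, and BBX31 is a B-box protein of the same network. HYH had 186, 174 and 188 in DPI leaves, against 595, 599 and 625 in water leaves, and HY5 had 112, 101 and 102 in DPI leaves, against 258, 271 and 286 in water leaves (log2 −1.72 and −1.36). BBX31 had 49.8, 45.2 and 28.3 in DPI leaves, against 290, 274 and 282 in water leaves. SIG5, a sigma factor that carries light signals to the plastid genome, had 1858, 1772 and 1767 in DPI leaves and 4579, 4407 and 4382 in water leaves. In the photoprotection list 4 of 20 were higher and 11 lower (median −0.32). Among phenylpropanoid and flavonoid genes 2 of 14 were higher and 8 lower (median −0.20), with 4CL1, at the entry of the pathway, at 4327, 4211 and 4157 in DPI leaves and 7085, 7400 and 7402 in water leaves.

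Photosystem, antenna and Rubisco transcripts were higher in 17 and lower in 3 of 41, with a median difference of only 0.08. The count was 11 higher without DPI replicate 1 and also without water replicate 2, and 1 lower without water replicate 1. LHCB1.4, a light-harvesting protein, had 115618, 107169 and 112332 in DPI leaves and 81174, 82538 and 83758 in water leaves, whereas the Rubisco small subunit gene RBCS1B, which is nearly identical to its neighbours in the family, had 16461, 15776 and 17195 in DPI leaves and 26200, 24624 and 26962 in water leaves. Among lipid transfer proteins of type 1, which bind lipids in the cell wall, 2 of 6 were higher and 2 lower, with LTP3 at 9.96, 19.4 and 19.2 in DPI leaves and 2.19, 4.16 and 2.84 in water leaves. Genes of carbon starvation were higher in 6 and lower in 2 of 12, with BZIP53 at 2935, 3129 and 3146 in DPI leaves and 1528, 1631 and 1582 in water leaves.

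**Figure D3:**
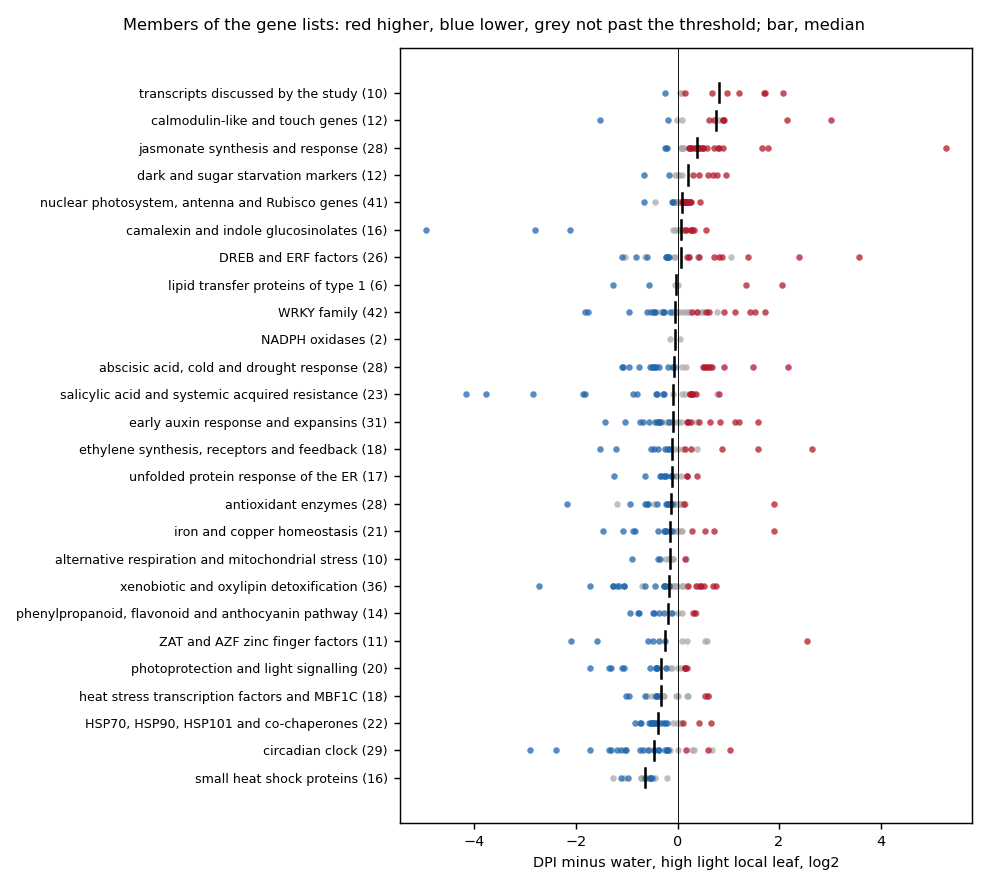
Log2 differences (x axis, DPI minus water, lit local leaves) of the tested members of the 26 gene lists (rows, with the number tested); each point is a gene, coloured by its call, and the bar is the list's median. Jasmonate (median 0.38) and calmodulin and touch genes (0.76) lie to the right, and clock (−0.46), small heat shock protein (−0.65) and photoprotection genes (−0.32) to the left.

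Chaperones and heat stress factors were more often lower than higher under DPI. Heat shock proteins hold and refold damaged proteins, and heat stress transcription factors (HSFs) induce them within minutes of heat or strong light. Small heat shock proteins had a median of −0.65, with 6 of 16 lower and none higher. With a pseudocount of 5, in the fit of only the contrast's groups, in edgeR and in DESeq2, 15 of 16 were lower. Several of these genes were near 0 in the unlit libraries of the shared fit, and ATHSP22.0 had no read in any of the unlit local libraries. Whether this bears on the change in the number called was not tested. AT5G37670, of the same family, had 1453, 1486 and 1492 in DPI leaves, against 2838, 2886 and 2965 in water leaves (log2 −0.97). ATHSP22.0 had 196, 175 and 187 in DPI leaves and 423, 421 and 377 in water leaves, and its limma adjusted p of 0.0497 was just under the threshold. The call was lost in 10 of 16 alternatives, among them each of the 6 with 1 library left out, while the log2 difference kept its sign (−1.18 to −1.08 with 1 library left out).

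The larger chaperones were lower in 15 and higher in 3 of 22 (median −0.39). CLPB3, a disaggregase of chloroplasts, had 9282, 9520 and 9626 in DPI leaves and 16441, 17206 and 16937 in water leaves. HSP101, its relative in the cytosol, had 23325, 23422 and 23371 in DPI leaves and 33785, 35057 and 35388 in water leaves (log2 −0.57). Of 18 heat stress factors and MBF1C, 7 were lower and 2 higher (median −0.33). HSFA7A had 1719, 1736 and 1645 in DPI leaves, against 3446, 3474 and 3448 in water leaves (log2 −1.02), HSFB1 had 2185, 2327 and 2328 in DPI leaves, against 4353, 4490 and 4416 in water leaves, and HSFA2 had 18352, 18466 and 18179 in DPI leaves, against 23292, 23548 and 24485 in water leaves. Transcripts of the unfolded protein response in the endoplasmic reticulum were higher in 3 and lower in 9 of 17 (median −0.12). The chaperone BIP3 had 25.6, 32.3 and 46.5 in DPI leaves and 63.4, 99.9 and 87.0 in water leaves.

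Antioxidant genes were lower in 12 and higher in 2 of 28 (median −0.13), 14 of 28 in all. The number higher was 1 without DPI replicate 1 or without water replicate 2, and 4 without water replicate 3. APX1, the cytosolic ascorbate peroxidase, had 4189, 3847 and 4156 in DPI leaves, against 6265, 5838 and 6060 in water leaves (log2 −0.58). Catalase 2 (AT4G35090), which removes hydrogen peroxide in peroxisomes, had 28418, 27072 and 28298 in DPI leaves, against 54251, 52231 and 53712 in water leaves (log2 −0.94). FSD1, the iron superoxide dismutase, was the largest exception at 381, 293 and 313 in DPI leaves and 104, 84.3 and 76.6 in water leaves, 3.73-fold higher under DPI. Among iron and copper genes 4 of 21 were higher and 10 lower, with FER4, a ferritin, at 120, 101 and 106 in DPI leaves and 247, 225 and 220 in water leaves. Alternative respiration genes were higher in 1 and lower in 3 of 10, the lower ones including NDA1, a mitochondrial NAD(P)H dehydrogenase, at 4388, 4084 and 4153 in DPI leaves and 5636, 5307 and 5609 in water leaves. NAC13, a factor of mitochondrial stress signaling, was also lower (log2 −0.89).

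Transcripts of the oxidases themselves did not pass the test. Of 10 RBOH genes 2 passed the filter. RBOHD had 2373, 2518 and 2594 in DPI leaves, against 2408, 2475 and 2391 in water leaves (log2 0.04, SE 0.04, limma adjusted p = 0.47), and the groups overlapped. RBOHF differed by −0.16 (limma adjusted p = 0.1), and 1 of the pair was called lower without DPI replicate 2. DPI acts on the proteins, which were not measured.

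Of 10 transcripts picked from those that the study discussed, RBOHD among them, 7 were higher and 1 lower in DPI leaves (median 0.82). The transcription factors among them (GATA8, WRKY48, WRKY53 and MYB30) are on a short list of the study. Its members are RBOHD-dependent systemic transcripts that were backed by mutant tests or were suppressed by DPI in this series. GATA8 and WRKY48 were among the genes tested with mutants, and WRKY53 and MYB30 were not. The study scored suppression by DPI as blocked expression after light, in local and in systemic leaves, and its short list drew on the systemic leaves. That score is unlike the DPI minus water difference in local leaves used here. For genes listed through DPI, the values here are not independent evidence. GATA8, a zinc finger factor, had 4810, 4626 and 4674 in DPI leaves, against 1470, 1338 and 1514 in water leaves (3.26-fold, log2 1.71, SE 0.05). WRKY48 had 111, 121 and 134 in DPI leaves and 33.9, 31.2 and 45.4 in water leaves, and AT3G13600, a calmodulin-binding protein, had 84.0, 87.2 and 94.0 in DPI leaves and 23.0, 20.8 and 17.0 in water leaves. AT1G29670, a GDSL lipase, had 8591, 7907 and 8472 in DPI leaves and 3720, 3458 and 3625 in water leaves. MYB30, a regulator of cell death, had 407, 444 and 504 in DPI leaves and 242, 304 and 300 in water leaves, 1.6-fold higher. WRKY53, a senescence factor, did not differ beyond its spread, at 317, 362 and 323 in DPI leaves and 328, 312 and 307 in water leaves (log2 0.08, SE 0.09). AT5G46270, a TIR-NBS-LRR receptor, was lower by a log2 difference of −0.26, and AT1G56520, of the same family, had a log2 difference of 0.16 with overlapping groups (limma adjusted p = 0.043), which was lost in 6 alternatives.

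The comparison was set beside the same one in unlit local leaves, which shares no library with it. There 7420 genes differed (40.5%), 3944 higher under DPI (21.5%) and 3476 lower (19%). Of the genes higher in lit leaves 2258 were also higher in unlit leaves (57.4% of the lit list, 57.3% of the unlit list), and 2148 were lower in both (55.9% and 61.8%). The log2 differences correlated across genes with Pearson's r of 0.31 and Spearman's rho of 0.48, as a description, since genes share libraries and are not independent. In 431 genes the sign was opposite, lower under DPI in high light and higher without it (median −0.56 lit and 0.92 unlit), whereas only 135 went the other way.

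**Figure D4:**
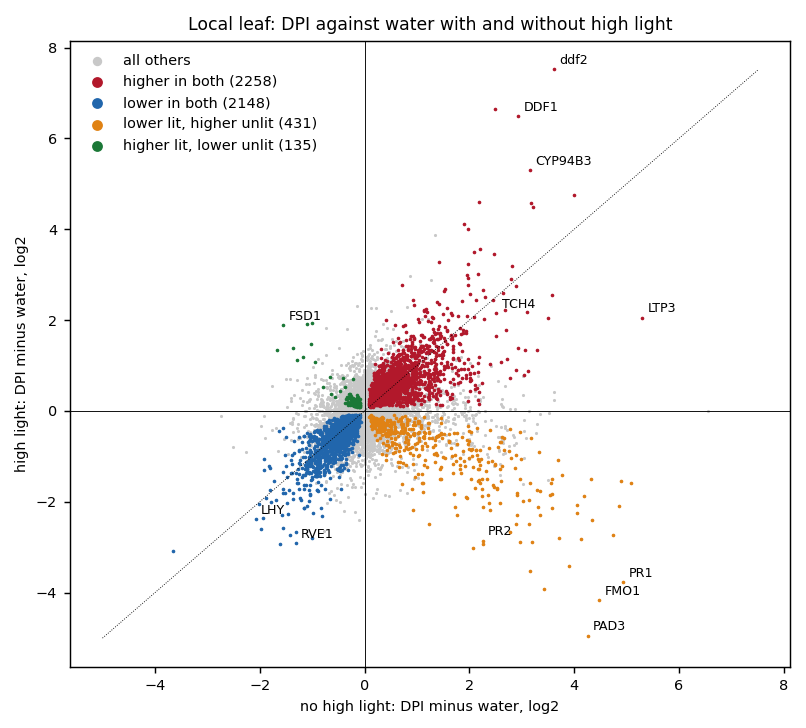
Log2 difference between DPI and water in lit local leaves (y axis) against that in unlit local leaves (x axis), each point a gene tested (18314). Genes called in both comparisons are coloured by their signs. In the lower right are 431 genes lower under DPI in lit and higher in unlit leaves, among them PR1 (−3.76 and 4.93), and in the upper left 135 with the reverse.

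Tested in 1 model, the lit comparison minus the unlit one (the interaction) passed the threshold in 3642 genes (19.9%), 1600 positive (8.74%) and 2042 negative (11.1%). Defense genes were at its negative end. PR1 in unlit leaves had 1053, 1056 and 1254 under DPI, against 42.3, 32.9 and 32.6 under water, the reverse order of the lit leaves, and its interaction was −8.70 (limma adjusted p = 1.7e-31). PR2 had 1948, 2013 and 2010 in unlit DPI leaves and 425, 358 and 475 in unlit water leaves (interaction −5.11), and AT2G43570 had 486, 543 and 611 in unlit DPI leaves and 51.4, 33.8 and 39.1 in unlit water leaves. PAD3 was at 90.6, 103 and 109 in unlit DPI leaves and 1.01, 6.57 and 8.96 in unlit water leaves, and FMO1 at 81.6, 54.8 and 79.6 in unlit DPI leaves and 3.02, 0.939 and 3.26 in unlit water leaves, although neither had a read in lit DPI leaves. The same reversal was seen for WAK3 (log2 −2.90 lit, 2.97 unlit), SAG13 (−2.87 and 3.19) and WRKY38 (−1.83 and 3.57).

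By lists, the interaction was negative in 21 of 23 salicylic acid genes and positive in none, in 25 of 28 jasmonate genes and positive in 1, in 15 of 17 genes of the unfolded protein response and positive in none, and in 15 of 26 DREB and ERF genes and positive in 1. In unlit leaves those lists had been higher under DPI in 22 of 23, 26 of 28, 17 of 17 and 19 of 26 members, with medians of 1.67, 1.49, 0.64 and 0.98. Thus jasmonate genes such as OPR3 were higher under DPI in both kinds of leaf (log2 0.82 lit, 2.02 unlit), by less in lit leaves (interaction −1.20). The pattern was not particular to these lists. Camalexin (13 of 16), ZAT and AZF (8 of 11) and detoxification genes (19 of 36) also had negative interactions, with none positive. In unlit leaves these were higher under DPI in 15, 9 and 25 members and lower in 0, 1 and 3. WRKY53, which did not pass in lit leaves, had 280, 246 and 278 in unlit DPI leaves and 88.7, 92.0 and 113 in unlit water leaves (interaction −1.37). WRKY18 was higher under DPI in both (log2 1.13 lit, 2.71 unlit). In unlit leaves LTP3 had 861, 518 and 526 under DPI and 12.1, 16.9 and 15.5 under water (log2 5.30 unlit, 2.05 lit).

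Several of the genes raised most in the lit comparison had positive interactions, though SRO5 (0.77, limma adjusted p = 0.13) and AT2G21510 (1.26, limma adjusted p = 0.26) did not pass. DDF1 had 145, 172 and 251 in unlit DPI leaves and 17.1, 17.8 and 40.7 in unlit water leaves, a log2 difference of 2.94 beside 6.49 in lit leaves (interaction 3.56). For ddf2 the unlit values were 37.4, 82.2 and 71.4 under DPI and 1.01, 3.76 and 12.2 under water. The interaction was positive in 17 of 41 photosystem, antenna and Rubisco genes and negative in none. FSD1 changed sign, at 363, 307 and 351 in unlit DPI leaves and 965, 972 and 1059 in unlit water leaves (log2 −1.55 unlit, 1.89 lit, interaction 3.44). HSFA2 and HSP101 were lower under DPI in both, by more in unlit leaves (log2 −1.55 and −1.51 unlit, −0.37 and −0.57 lit), HSFA2 there at 65.7, 70.0 and 71.4 under DPI and 235, 181 and 199 under water.

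Clock genes were mostly lower under DPI without high light too, with 18 of 29 lower and 3 higher in unlit leaves (median −0.52). LHY had 1628, 1697 and 1572 in unlit DPI leaves and 6884, 7030 and 6734 in unlit water leaves (log2 −2.08), and CCA1 had log2 differences of −1.12 lit and −1.11 unlit. The interaction passed the threshold in 11 of the 29 clock genes, 5 positive and 6 negative, against 19.9% of all genes. Among them TOC1 (−0.38) lost its call in 16 of 22 alternatives. In RVE1 the difference was larger in lit leaves (log2 −2.91 lit, −1.31 unlit, interaction −1.59). TCH4 (2.15 lit, 2.51 unlit) and GATA8 (1.71 and 1.38) were likewise higher under DPI in both.

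**Figure D5:**
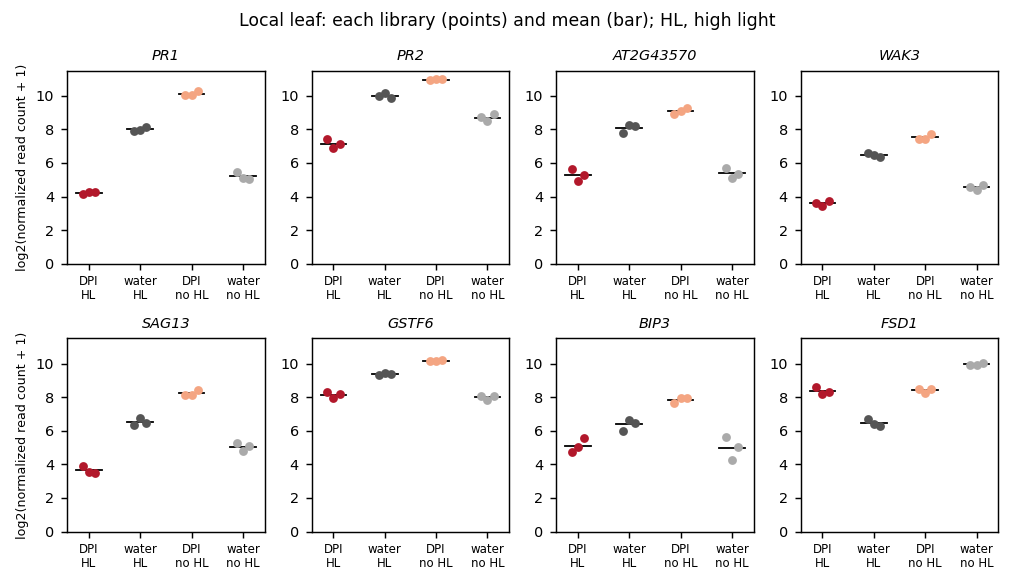
Log2(normalized count + 1) of selected transcripts in local leaves of each library, lit DPI, lit water, unlit DPI and unlit water from left to right. Points are libraries and bars are group means. PR1 is lower under DPI than under water in lit leaves and higher in unlit leaves (1053 to 1254 against 32.6 to 42.3 normalized counts), and FSD1 shows the reverse.

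In systemic leaves of the lit plants, 7154 genes differed between DPI and water (39.1%), 3571 higher (19.5%) and 3583 lower (19.6%). These leaves share no library with the local leaves. The methods describe both leaves as taken from the treated plants, however, so the local and systemic comparisons are not independent. Log2 differences in local and systemic leaves correlated across genes with r of 0.72 and rho of 0.67, given as a description. Genes higher in both numbered 2654, genes lower in both 2564, and 29 and 60 had opposite signs. LHY (−2.39 local, −2.62 systemic), RVE1 (−2.91 and −3.02), GATA8 (1.71 and 1.55) and FSD1 (1.89 and 2.65) had the same sign in both leaves. The DDF genes were higher in both, with log2 differences of 6.49 local and 3.72 systemic for DDF1, and CYP94B3 had 5.29 and 3.55.

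Some defense transcripts had unlike values in the leaves, and the difference between the leaves was not tested. PR1 had a log2 difference of −3.76 in local and −0.23 in systemic leaves (limma adjusted p = 0.15 in systemic leaves), PR2 had −2.86 and 0.37, and AT2G43570 had −2.80 and 0.19. The unfolded protein response list was higher in 13 of 17 and lower in none in systemic leaves (median 0.24), beside 3 higher and 9 lower in local leaves. BIP3, for example, was at −1.25 in local and 1.04 in systemic leaves. Small heat shock proteins had medians of −0.65 in local and −0.57 in systemic leaves.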

How the data were processed

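Leaf RNA was sequenced as single-end reads. Per the labels and methods, the authors checked reads with FastQC 0.11.7, aligned them with STAR 2.4.0.1 to TAIR10, counted reads per gene and divided counts by DESeq2 1.20.0 size factors. Libraries were made with a stranded kit and STAR ran with default mapping, which keeps reads with several locations. How the counting step treated strand and such reads is not given in the sources used here, so overlapping genes and near-identical family members are uncertain. The deposited signal, a normalized read count, came back as whole reads in 100% of values (tolerance 1e-06).

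Groups came from the sample titles. limma 3.58.1 (R 4.3.3), in trend mode, was fitted to log2(value + 1) of all 24 libraries with 8 group means (16 residual degrees of freedom), two-sided, for genes with a value of at least 10 in at least 3 libraries. On simulated 2-fold changes in 200 genes of the lit local comparison it recovered 183, with 16 false calls. Only those 200 genes differed between the simulated lit groups, so this does not measure the error rate where 42.5% of genes are called. Alternatives were pseudocounts of 5 and 0.5, other filters, TMM and quantile scaling, a fit of only the contrast's groups, a replicate block, edgeR 4.0.16 and DESeq2 1.42.0 on recovered reads, and each replicate left out. The floor was 3 reads per library.

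The members and lists were chosen with earlier results of these data known. Genes are named by 4 rules. The first took the 8 largest called differences each way, with groups apart and a mean of at least 50. The second took the 2 largest of each of 26 lists with a mean of at least 20. The others took the 10 transcripts picked from the study and the 2 largest interactions each way. Named after their values were seen were CCA1, RVE8, TOC1, CHE, HSFA2, HSP101, FMO1, PR5, OPR3, NPR3, SIG5, HAB1, COR47, ERF5, WRKY18, ZAT10, APX1 and LTP3. Names and promoters are from RefSeq (TAIR10.1).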

Additional observations from a re-analysis of the deposited data

Results flagged for a closer look

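Effects of DPI differed between lit and unlit local leaves in 3642 genes by the interaction test (limma, lit minus unlit, adjusted p at the threshold of 0.05), and 62 of the genes named here are among them. The 3-library groups were too small for a test of single stray libraries.

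Interactions were positive, on the log2 scale, in AT5G52020 (4.15), ddf2 (3.91), DDF1 (3.56), FSD1 (3.44), AT5G38700 (2.41), CYP94B3 (2.14), BPS3 (1.39), HSFA2 (1.17), DREB26 (1.02), CYP707A1 (0.99), HSP101 (0.94), AT3G13600 (0.92), CML38 (0.85) and ACS11 (0.65). Smaller positive values were those of CHE (0.47), AT1G29670 (0.4), LHCB1.4 (0.36), GATA8 (0.33) and BZIP53 (0.22). The fitted values of AT5G52020 and ddf2 depend on the pseudocount, since their mean normalized counts in lit water leaves were only 1.08 and 0.347.

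Among defense genes and LTP3 the interaction was negative in PAD3 (−9.2), PR1 (−8.7), FMO1 (−8.64), AT2G43570 (−6.5), SAG13 (−6.06), WAK3 (−5.87), WRKY38 (−5.41), PR2 (−5.11), GSTF6 (−3.44), LTP3 (−3.25), PR5 (−1.59), WRKY18 (−1.58), WRKY53 (−1.37), CYP81D1 (−1.27) and NPR3 (−0.62). The fitted values of PAD3 and FMO1 depend on the pseudocount, since neither had a read in lit DPI leaves.

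Negative values were also found for the chaperones and heat factors BIP3 (−4.13), ATERDJ3A (−1.68), HSFB1 (−1.29), AT5G37670 (−0.98), CLPB3 (−0.47) and CLPB4 (−0.39), and for the clock and light genes BBX31 (−1.78), RVE1 (−1.59), ASG4 (−1.31), HYH (−0.48), TOC1 (−0.38), SIG5 (−0.37) and LHY (−0.31). The stress and hormone genes RRTF1 (−1.55), ERF5 (−1.51), ZAT10 (−1.48), OPR3 (−1.2), AT2G28200 (−1), JAZ7 (−0.92), HAB1 (−0.4) and TCH4 (−0.36) were negative too, as were AT1G69890 (−0.6), 4CL2 (−0.54), EXPA1 (−0.51), NAC13 (−0.47), RBOHD (−0.39), APX1 (−0.39) and 4CL1 (−0.29).

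Some of these interaction calls were lost in part of the 22 alternatives, 12 of which leave out a library. TOC1 was lost in 16 (11 of them with a library left out), AT5G37670 in 11 (9), RRTF1 in 10 (7), 4CL2 in 7 (6) and BZIP53 in 6 (5). ACS11 was lost only without water replicate 2 of the lit leaves, and NAC13 only without DPI replicate 1 of the lit leaves.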

How the results depend on the processing

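The 7781 genes called between DPI and water in lit local leaves numbered 7236 to 8060 under the other settings except DESeq2, where they were 7067 (edgeR on the recovered reads called 7660), and 7001 to 7191 with 1 library left out (3536 to 3653 higher, 3465 to 3591 lower). Requiring a mean of at least 50 left 260 genes at least 2-fold higher and 235 at least 2-fold lower. Deviations of DPI and water replicates of the same number were hardly correlated in lit local leaves (−0.021, 0.001 and −0.006). The correlations were small and positive in unlit local leaves (0.040, 0.019 and 0.018) and in systemic leaves of lit plants (0.023, 0.030 and 0.023). The fit with the replicate block called 8060. Of 83 named genes called in lit leaves, 2 missed the threshold in some alternative (ATHSP22.0, AT1G56520) and none changed sign. Signs changed for small values that were mostly not called: AT5G37670 unlit (−0.12, quantile), and the interactions of CYP81F2 (−0.0057 TMM, −0.036 edgeR, −0.022 DESeq2), HSFA7A (0.018 pseudocount 0.5, 0.12 quantile, 0.031 edgeR, 0.048 DESeq2), NDA1 (−0.063, quantile) and CCA1 (7.3e-05, quantile). With 1 library left out these ranged from −0.18 to 0.18, −0.10 to 0.15, −0.14 to 0.15, −0.020 to 0.079 and −0.032 to 0.0038, and interactions of COR47 from −0.062 to 0.019, HY5 from −0.086 to 0.14 and WRKY48 from −0.29 to 0.094. Interaction calls of 7 named genes were lost in some alternative, TOC1 in most. Counts of 1 to 3 members in the calmodulin, starvation, phenylpropanoid, lipid transfer, alternative respiration and ZAT lists moved by 1 or 2 with single libraries or settings. The cause was not tested. Depth limits genes under about 3 reads.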
